A study of Mus musculus with 12 samples.

Results

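The livers of 7 adult male mice were compared by RNA-seq, 3 born to vitamin D deficient dams (VDD-F1, mice 4, 5 and 6) and 4 born to vitamin D sufficient dams (VDS-F1, mice 3, 4, 5 and 6). They are the mice of the study for which a liver weight was recorded, 7 of 12 in all. The remaining 5 mice (VDD-F1 mice 1, 2 and 3 and VDS-F1 mice 1 and 2) had no recorded weight and no mouse is in both sets. All were C57Bl/6J males killed at 16 weeks. Their dams ate a deficient or a nutrient-matched sufficient diet before mating and through pregnancy, and the deficient dams also received calcium gluconate. After birth every dam and all offspring were on the sufficient diet, so the groups differ in what the dam ate up to delivery and not in the diet fed to the offspring. Vitamin D stores recover slowly after such a switch, so the suckling period may differ between the groups as well. Litters are not given in the labels, so mice of 1 group may share a dam, and the p-values measure the spread between these mice. RNA came from a piece of 1 liver lobe and so from a mixture of cells. In such samples, fewer cells of a type and less RNA per cell cannot be told apart.

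The liver is built of lobules in which blood flows from the portal side to a central vein. Hepatocytes near the central vein detoxify drugs and make glutamine, while those near the portal side make urea and glucose. In rodents many hepatocyte genes also differ between males and females, because growth hormone is released in pulses in males and more evenly in females. Between the hepatocytes lie Kupffer cells (the resident macrophages), sinusoidal endothelial cells and stellate cells, which store vitamin A and can lay down collagen.

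Each library gave between 14275793 and 20582910 fragments counted on genes in the 7 mice. The share of fragments outside annotated genes was 11.1% in VDS-F1 mouse 6 and 2.83% to 4.90% in the other 6. Levels are given below as CPM, the fragments of a gene per 1e6 counted on genes, scaled over all 12 libraries. CPM takes no account of gene length, so values compare mice and not genes. Every library had the hepatocyte gene Alb among its most abundant, at 55809 CPM or more, and at most 24 counts of Xist, which is expressed in female cells. Across genes, log2 CPM correlated with a median r of 0.988 between pairs of the 3 VDD-F1 mice, 0.986 between pairs of the 4 VDS-F1 mice and 0.973 between mice of different diets. Genes are not independent replicates, and the r values are a description.

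Of 12453 genes tested, 728 (5.85%) were higher and 638 (5.12%) lower in VDD-F1 at an adjusted p-value under 0.05 (edgeR quasi-likelihood test, Benjamini-Hochberg). Of these, 381 (3.06% of the genes tested) were higher and 155 (1.24%) were lower by a log2-fold change of more than 1, and those are called DEGs here. Scaled by library totals alone, 835 were higher and 428 lower, so the balance of higher to lower calls depends on the scaling. The counts moved with the mice included. Without VDD-F1 mouse 5, 425 genes were higher and 396 lower, and without VDD-F1 mouse 4 they were 459 and 418. The number lower was 380 without VDD-F1 mouse 6 and 405 without VDS-F1 mouse 3. Without VDS-F1 mouse 6, 854 were higher and 725 lower. When the spread was estimated over all 12 libraries with a separate diet effect for each set of mice, 126 genes were higher and 126 lower. Of 95 genes that passed in the 7 mice and were chosen by rule to be named (by p-value, size of change and list), 44 passed in that fit.

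Genes were grouped into 23 lists of functions and 12 lists of cell type markers, and each list is read below against those shares of all genes. Over all genes the median log2-fold change was 0.01. Medians were highest for markers of monocyte-derived macrophages, mitosis and collagens. They were lowest, among lists of at least 12 tested genes, for male-biased genes, clock genes, the Cyp2c family and pericentral genes.

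**Figure D1:**
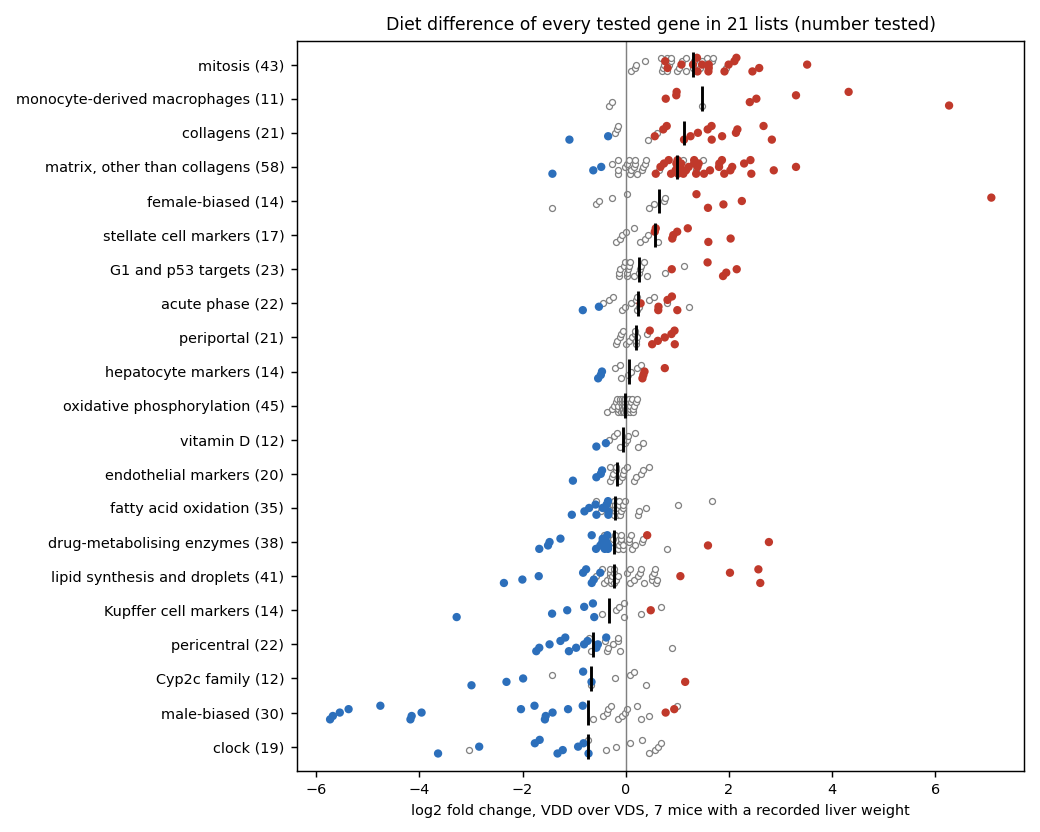
Log2-fold change (x axis, VDD-F1 over VDS-F1, 3 against 4 mice) of each tested gene in 21 lists (y axis, with the number of genes tested). Filled points passed at an adjusted p-value under 0.05, open points did not, and black bars are medians: all 43 mitosis genes lie to the right of 0, and 21 of the 22 pericentral genes lie to the left.

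Cyp2a4, a cytochrome P450 of the female mouse liver (chromosome 7, 26307169 to 26315088, GRCm38), was the gene with the smallest p-value among those that rose. It was at 36.2, 26.6 and 25.2 CPM in VDD-F1 mice 4, 5 and 6, and at 0, 0.416, 0.208 and 0.143 CPM in VDS-F1 mice 3, 4, 5 and 6. The groups were far apart, with a log2-fold change of 7.09 (SE 0.34, adjusted p = 4.16e-07). Its near-identical neighbour Cyp2a5 fell by 0.58 on the log2 scale (SE 0.15, adjusted p = 0.0325), and reads of such a pair can be assigned to the wrong copy, so that both values are uncertain.

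Lrtm2, a leucine-rich repeat membrane protein (chromosome 6, 119315133 to 119330766), was at 7.76, 4.63 and 6.06 CPM in VDD-F1. In VDS-F1 a single read was counted, in mouse 4, and the other 3 mice had none. No fold is given for it, since the VDS-F1 level rests on that read. Gldn, which encodes gliomedin (chromosome 9, 54286486 to 54341786), was at 6.32, 6.10 and 4.43 CPM against 0.0687, 0.104, 0.0694 and 0 CPM. It was near absent in these 4 VDS-F1 mice, and at 1.04 and 2.07 CPM in VDS-F1 mice 1 and 2.

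Lpl, lipoprotein lipase, which frees fatty acids from circulating triglyceride (chromosome 8, 68880491 to 68907448), was at 84.6, 87.1 and 97.5 CPM in VDD-F1 and at 19.8, 15.7, 10.5 and 12.8 CPM in VDS-F1. The lowest VDD-F1 mouse stood above the highest VDS-F1 mouse, and the log2-fold change was 2.61 (SE 0.17, adjusted p = 4.00e-06). Lpl did not pass when the spread was estimated over all 12 libraries (adjusted p = 0.0686). Acmsd, an enzyme that diverts tryptophan breakdown away from NAD (chromosome 1, 127729413 to 127767978), was at 86.0, 77.8 and 84.3 CPM against 24.8, 20.2, 17.3 and 20 CPM. It rose by a log2-fold change of 2.01 (SE 0.12, adjusted p = 1.51e-06), again with no overlap between the groups.

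Among the DEGs with the largest rises were Ntrk2 and Tff3. Ntrk2, the receptor of brain-derived neurotrophic factor (chromosome 13, 58806569 to 59133970), was at 41.1, 32.7 and 32.5 CPM in VDD-F1 and 1.99, 7.75, 2.64 and 2.22 CPM in VDS-F1 (log2-fold change 3.22, SE 0.36, adjusted p = 0.000189). Tff3, a trefoil peptide secreted by mucous epithelia (chromosome 17, 31125306 to 31129646), was at 10.6, 13.8 and 15.1 CPM against 0.481, 0.364, 1.25 and 1.86 CPM (log2-fold change 3.78, SE 0.37, adjusted p = 8.35e-05). In the 2 VDS-F1 mice without a recorded weight Tff3 was far higher, at 43.4 and 55.6 CPM, so the low level was seen in 4 of the 6 VDS-F1 mice.

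**Figure D2:**
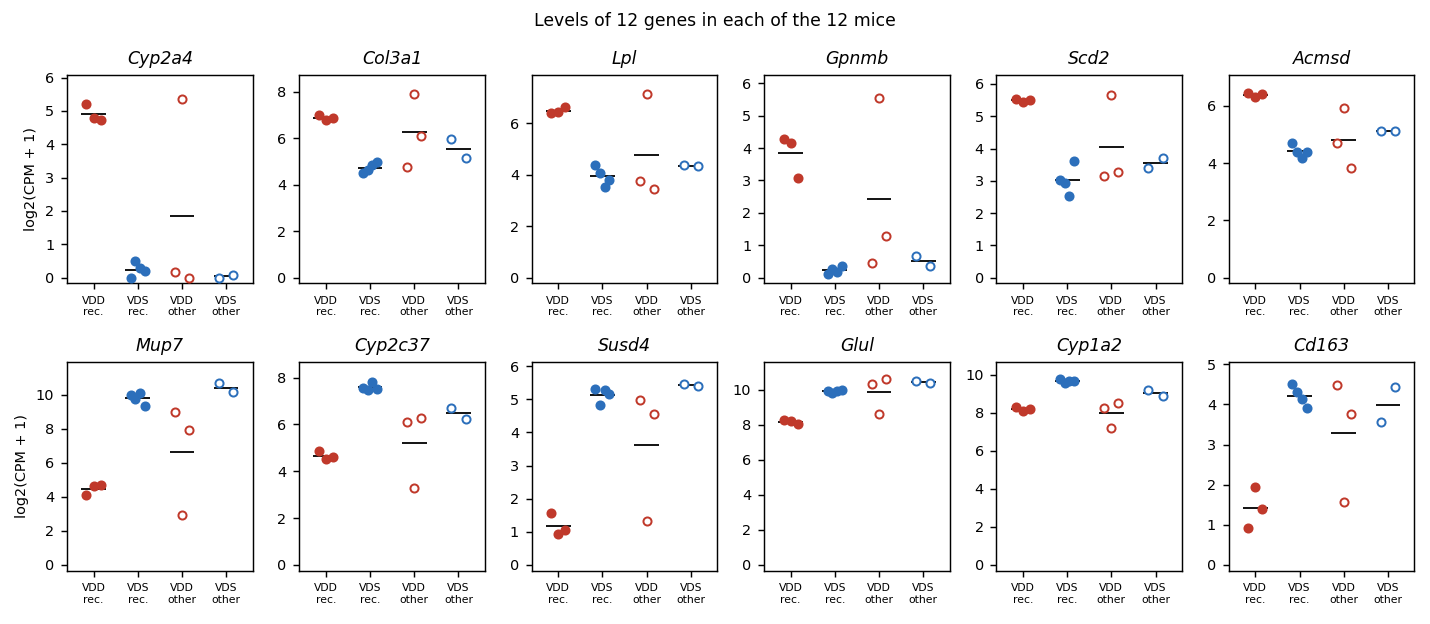
Log2(CPM + 1) (y axis) of 12 genes in each mouse, in 4 groups (x axis): VDD-F1 and VDS-F1 mice with a recorded liver weight (filled points, 3 and 4 mice) and the other VDD-F1 and VDS-F1 mice (open points, 3 and 2). Black bars are group means. Filled red and blue points do not overlap for any of the 12 genes, and 1 of the open red points, VDD-F1 mouse 2, lies beside or beyond the filled red ones for most of them.

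Of 30 tested genes that are higher in male than in female liver, 15 were lower and 2 higher, with a median log2-fold change of -0.73, and 7 were lower and 1 higher when the spread was estimated over all 12 libraries. Mup7, one of the major urinary proteins that male mice make as scent carriers (chromosome 4, 60066469 to 60070475), was at 16.1, 23.9 and 24.4 CPM in VDD-F1 and at 1014, 838, 1072 and 652 CPM in VDS-F1. Its log2-fold change was -5.37 (SE 0.22, adjusted p = 1.79e-07). Mup17 (chromosome 4, 61591929 to 61595871) was at 5.22, 3 and 3.17 CPM against 222, 126, 189 and 159 CPM, and Mup15 (chromosome 4, 61435790 to 61439743) at 1.99, 2.47 and 2.38 CPM against 138, 86.9, 159 and 88.6 CPM. Mup11, Mup12 and Mup1 fell by 3.96 to 4.17 on the log2 scale.

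Not every gene of the list followed. Mup20, also a major urinary protein, was higher in VDD-F1, at 1441, 1691 and 1716 CPM against 1222, 658, 1051 and 851 CPM (log2-fold change 0.77, SE 0.17, adjusted p = 0.0136), and it passed in 5 of the 7 fits that left out 1 mouse (adjusted p = 0.0628 without VDD-F1 mouse 5). Serpina1e, an alpha-1-antitrypsin gene, was also higher, at 13399, 13261 and 11454 CPM against 5725, 6228, 8422 and 6117 CPM (log2-fold change 0.94, SE 0.13, adjusted p = 0.000834). They were the 2 members that rose, and without VDD-F1 mouse 5 or 6 the number higher was 1. Because abundant members moved both ways, the summed CPM of the list overlapped between the groups, at 19963 to 22263 in VDD-F1 and 19134 to 23669 in VDS-F1. The Mup genes lie in a cluster of near-identical copies, and fragments that map to more than 1 place were not counted. The values of single Mup genes and the sum of the list may thus be too low and are uncertain.

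Other male-biased genes that fell were Susd4, a complement regulator, Hsd3b5, a steroid-metabolizing enzyme, Cyp2d9, a steroid hydroxylase, and Cyp7b1, an oxysterol hydroxylase. Susd4 (chromosome 1, 182763860 to 182896591) was at 1.99, 0.894 and 1.07 CPM in VDD-F1 and at 39.0, 27.5, 37.6 and 34.6 CPM in VDS-F1 (log2-fold change -4.76, SE 0.24, adjusted p = 6.37e-07). Hsd3b5 was at 43.5, 56.4 and 38.7 CPM against 183, 194, 219.9 and 158 CPM. Cyp2d9 was at 516, 514 and 417 CPM against 1419, 1185, 1291 and 1263 CPM. Elovl3 and Cyp4a12a, which are male-biased as well, overlapped between the groups and did not pass (adjusted p = 0.983 and 0.308).

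Of 28 genes listed as higher in female liver, 14 had enough counts to be tested and 5 were higher, namely Cyp2a4, Cyp17a1, Nipal1, Abcd2 and Cyp2b10, while none was lower. The list is thus seen only in part, since the 14 under the filter include the strongly female Cyp2b9, Cyp3a41a and Sult2a1. Cyp17a1, which makes androgen precursors, was at 14.9, 21.5 and 18.7 CPM in VDD-F1 and at 1.86, 5.51, 6.04 and 6.37 CPM in VDS-F1 (log2-fold change 1.89, SE 0.29, adjusted p = 0.00196). Nipal1, a magnesium transporter, was at 6.73, 25.9 and 12.7 CPM against 1.37, 1.77, 5.14 and 4.65 CPM (log2-fold change 2.25, SE 0.47, adjusted p = 0.0108). The number of female-biased genes passing fell to 2 without VDD-F1 mouse 5, to 3 without VDD-F1 mouse 6 and to 3 with the spread over all 12 libraries.

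Of 20 tested growth hormone and insulin-like growth factor genes, 1 was higher (Igfbp7, which encodes a binding protein of this family) and none was lower, a share near that of all genes. Igfbp7 did not pass with the spread over all 12 libraries (adjusted p = 0.184). Igf1 was at 776, 916 and 689 CPM against 629.8, 674, 674 and 605 CPM (adjusted p = 0.0870). The growth hormone receptor Ghr (adjusted p = 0.319) and the transcription factor Stat5b (adjusted p = 0.937) had log2-fold changes of -0.15 and -0.02. The letters TTCNNNGAA, bound by Stat5 and the same on both strands, were in the promoter window (250 bases before to 50 after the start) of 1 of the 11 male-biased DEGs with a RefSeq window and of 0 of 3 female-biased ones. They were in 6.94% of windows over 9590 tested genes.

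Of 22 tested genes of the pericentral zone, 12 were lower and none was higher, with a median log2-fold change of -0.63, and their summed CPM was 4715 to 5363 in VDD-F1 and 9142 to 11263 in VDS-F1. Glul, glutamine synthetase, the defining gene of the hepatocytes next to the central vein (chromosome 1, 153899944 to 153909723), was at 313, 298 and 261 CPM in VDD-F1 and at 969, 918, 967 and 1014 CPM in VDS-F1. Its log2-fold change was -1.73 (SE 0.09, adjusted p = 8.22e-07). Cyp1a2, which metabolizes caffeine (chromosome 9, 57676937 to 57683703), was at 309, 270.2 and 292 CPM against 861, 762, 795 and 818 CPM (log2-fold change -1.48, SE 0.09, adjusted p = 1.51e-06). Cyp2e1, the ethanol-metabolizing P450 (chromosome 7, 140763739 to 140774987), was at 2527, 2098 and 2243 CPM against 4633, 6003, 6542 and 4846 CPM. All 3 genes were separated completely between the groups, but they were named for small p-values in these same mice.

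The remaining pericentral genes that fell included Slc1a2, a glutamate transporter, Oat, which makes glutamate from ornithine, Tbx3, a transcription factor, and Rnf43 and Sp5, targets of Wnt signalling. The best known Wnt targets of this zone, Axin2 and Lgr5, had log2-fold changes of -0.37 and -0.16 and did not pass (adjusted p = 0.347 and 0.779). The number of pericentral genes lower was 7 without VDD-F1 mouse 6 and 7 without VDS-F1 mouse 4. It was 8 without VDD-F1 mouse 5 and 8 without VDS-F1 mouse 5, and 4 with the spread over all 12 libraries. Wnt2, a ligand made by the endothelial cells, was lower as well, at 1.03, 1.79 and 1.54 CPM against 2.41, 3.28, 3.12 and 3.15 CPM (log2-fold change -1.02, SE 0.28, adjusted p = 0.0388). It passed in only 1 of the 7 fits that left out 1 mouse, with an adjusted p of 0.114 without VDD-F1 mouse 4.

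Among periportal genes 7 of 21 were higher and none was lower, all 7 by a log2-fold change under 1. Gls2, the liver glutaminase, was at 609, 583 and 657 CPM in VDD-F1 and at 417, 419.5, 366 and 399 CPM in VDS-F1 (log2-fold change 0.62, SE 0.08, adjusted p = 0.000808). Ass1 of the urea cycle was at 4221, 4362 and 4683 CPM against 3084, 3264, 2783 and 3277 CPM (log2-fold change 0.51, SE 0.09, adjusted p = 0.00342). The amino acid enzymes Sds, Sdsl and Tat, the droplet protein Hsd17b13 and the adhesion gene Cdh1 were the others. Cps1 and Pck1, the entry steps of urea and glucose synthesis, did not pass (adjusted p = 0.512 and 0.300). With the spread over all 12 libraries 1 periportal gene was higher, and Gls2 did not pass (adjusted p = 0.0746).

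Drug-metabolizing P450s and esterases fell more often than they rose. Of 38 tested, 14 were lower and 3 higher. Cyp1a2, Cyp2e1, Nr1i3 and Ahr are in the pericentral list as well, so the 2 lists are not independent. Without VDD-F1 mouse 5 or 6, 8 were lower and 1 higher, and without VDD-F1 mouse 4 or VDS-F1 mouse 4, 1 was higher. With the spread over all 12 libraries 5 were lower and none was higher. Within the Cyp2c family, 5 of 12 were lower and 1 higher, with a median log2-fold change of -0.67, and in that 12-library fit 2 were lower and none was higher. Cyp2c37, an arachidonic acid epoxygenase and the gene with the smallest p-value among those that fell (chromosome 19, 39992424 to 40012243), was at 27.9, 21.7 and 23.0 CPM in VDD-F1 and at 188, 178, 222 and 180.4 CPM in VDS-F1. Its log2-fold change was -2.99 (SE 0.12, adjusted p = 1.79e-07). Cyp2c50 and Cyp2c54, its neighbours on chromosome 19, fell by 1.99 and 2.31, the latter with an adjusted p of 0.0602 in the 12-library fit. Cyp2c55 rose by a log2-fold change of 1.15 (SE 0.17, adjusted p = 0.00117). Cyp2c genes are similar in sequence, and fragments that map to more than 1 of them were not counted.

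Nr1i3 (CAR), the nuclear receptor that drives several of these enzymes, was at 14, 13.8 and 15.2 CPM in VDD-F1 and at 43.4, 39.5, 61.3 and 39.1 CPM in VDS-F1 (log2-fold change -1.68, SE 0.16, adjusted p = 7.61e-05). Cyp2b10, its classical target, nonetheless was higher in VDD-F1, at 5.70, 4.94 and 4.43 CPM against 3.30, 1.61, 0.833 and 0.859 CPM (log2-fold change 1.59, SE 0.39, adjusted p = 0.0238). It passed in 2 of the 7 fits that left out 1 mouse (adjusted p = 0.0825 without VDD-F1 mouse 4). The receptors Nr1i2 (PXR) and Ahr did not pass (adjusted p = 0.629 and 0.186). Among 37 conjugating enzymes, 5 were higher and 4 lower. Without VDD-F1 mouse 6, 2 were higher, and without VDD-F1 mouse 5, 2 were lower, and 1 was higher and 1 lower with the spread over all 12 libraries. Gstm3, a glutathione transferase, was at 189, 209 and 187 CPM against 88.9, 78.2, 51.5 and 77.1 CPM. Ugt1a1, which conjugates bilirubin, was at 158, 111 and 141 CPM against 259, 260.2, 283 and 240.3 CPM.

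Of 41 genes of lipid synthesis and storage, 4 were higher (Lpl, Scd2, Cidec and Plin4) and 8 lower, with a median log2-fold change of -0.23. Without VDS-F1 mouse 6, 8 were higher and 10 lower, and with the spread over all 12 libraries 1 was higher and 1 lower. Scd2, the stearoyl-CoA desaturase of developing liver and brain, was at 45.4, 42.7 and 44.2 CPM in VDD-F1 and at 7.15, 6.61, 4.79 and 11.2 CPM in VDS-F1 (log2-fold change 2.57, SE 0.21, adjusted p = 1.91e-05). Cidec, which enlarges lipid droplets, was at 12.4, 9.89 and 6.25 CPM against 2.13, 2.91, 1.39 and 2.79 CPM (log2-fold change 2.02, SE 0.28, adjusted p = 0.00101).

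Genes of new fatty acid synthesis were among those that fell. Thrsp, which promotes lipogenesis, was at 40.6, 45.4 and 96.3 CPM in VDD-F1 and at 285, 248, 229 and 216 CPM in VDS-F1 (log2-fold change -2.0, SE 0.26, adjusted p = 0.000557). Fasn, fatty acid synthase, was at 787, 747 and 789 CPM against 1555, 1334, 949 and 1657 CPM (log2-fold change -0.83, SE 0.16, adjusted p = 0.00627). Fitm1, Dgat2 and the carbohydrate-sensing factor Mlxipl were lower too. Fitm1, which packages triglyceride into droplets, was at 8.51, 4.79 and 6.39 CPM against 26.9, 39.8, 29.9 and 37.2 CPM.

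Of 35 fatty acid oxidation genes tested, 10 were lower and none higher, and 25 did not pass. The log2-fold change was negative in 30 of them, with a median of -0.21. Scaled by library totals alone, 5 were lower and 1 higher, and with the spread over all 12 libraries none passed in either direction. In the 5 mice with no recorded weight none of the 10 had a negative log2-fold change, and the median of the list there was 0.27. Pex11a, a peroxisome proliferation factor, was at 34.1, 34.4 and 34.6 CPM in VDD-F1 and at 59.4, 64.4, 63.3 and 52.2 CPM in VDS-F1 (log2-fold change -0.80, SE 0.10, adjusted p = 0.000462). Vnn1 and Acaa1a, like Pex11a targets of the receptor Ppara, fell by 1.05 and 0.45 on the log2 scale. The log2-fold changes of Pex11a, Vnn1 and Acaa1a in the 5 others were 0.71, 0.89 and 0.18, and the test of the difference between the sets did not pass for them (adjusted p = 0.178, 0.145 and 0.290). Ppara itself was lower with an adjusted p of 0.0495, close to the threshold, and passed in 2 of the 7 fits that left out 1 mouse (adjusted p = 0.180 without VDD-F1 mouse 6). The number lower was 4 without VDD-F1 mouse 5, 4 without VDD-F1 mouse 6 and 6 without VDS-F1 mouse 4. Without VDS-F1 mouse 6, 7 were lower and 2 higher. None of the 45 tested genes of oxidative phosphorylation passed, and 1 was lower without VDS-F1 mouse 6.

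Of 23 bile acid and sterol transport genes, 4 were higher and 7 lower. Slc10a1 (NTCP), which takes bile acids up from blood, was at 274, 268 and 265 CPM in VDD-F1 and at 569, 517, 567 and 581 CPM in VDS-F1 (log2-fold change -1.05, SE 0.08, adjusted p = 1.10e-05). The synthesis enzymes Cyp8b1 and Cyp27a1 fell, whereas the rate-limiting Cyp7a1 had a log2-fold change of 0.01 (adjusted p = 0.988). Abcg5, which with Abcg8 exports sterols into bile, was at 89.3, 78.1 and 112 CPM against 36.6, 44.8, 56.0 and 33.5 CPM (log2-fold change 1.12, SE 0.17, adjusted p = 0.00180), and Abcg8 rose by 0.86. Of 21 cholesterol synthesis genes, 3 were lower (Hsd17b7, Mvk and Sqle) and none higher. Without VDD-F1 mouse 5 or without VDS-F1 mouse 5, 1 gene of the list was lower. With the spread over all 12 libraries 1 bile acid or sterol transport gene was higher, and no other gene of either list passed, with adjusted p-values of 0.101 for Slc10a1 and 0.0840 for Abcg5.

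Collagen genes were mostly higher. Of 21 tested, 14 were higher and 2 lower, with a median log2-fold change of 1.13. Col3a1, a fibrillar collagen (chromosome 1, 45311538 to 45349706), was at 126, 108 and 114 CPM in VDD-F1 and at 21.4, 23.9, 27.8 and 30.4 CPM in VDS-F1 (log2-fold change 2.16, SE 0.12, adjusted p = 1.02e-06). Col1a1, the main collagen of scar tissue, was at 93.4, 62.2 and 62.7 CPM against 7.15, 10.8, 11.2 and 16.5 CPM (log2-fold change 2.67, SE 0.23, adjusted p = 3.09e-05). Col6a3, Col1a2 and Col6a2 rose by 1.59 to 2.14. The exceptions were Col27a1 and Col18a1, the latter a hepatocyte-made basement membrane collagen at 1127, 1069 and 1099 CPM against 1357, 1281, 1326 and 1604 CPM (log2-fold change -0.34, SE 0.09, adjusted p = 0.0388). Without VDD-F1 mouse 4 or 6 neither passed, and without VDD-F1 mouse 5 or VDS-F1 mouse 3 or 6, 1 collagen was lower.

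Other matrix genes went with the collagens, with 33 of 58 higher and 3 lower and a median log2-fold change of 0.99. Timp3, a metalloproteinase inhibitor, was at 58.1, 61.2 and 51.7 CPM in VDD-F1 and at 25.1, 24.3, 25.2 and 26.8 CPM in VDS-F1 (log2-fold change 1.17, SE 0.10, adjusted p = 2.21e-05). Eln, elastin, was at 16.1, 12.7 and 14.7 CPM against 1.65, 2.76, 2.08 and 4.36 CPM (log2-fold change 2.42, SE 0.26, adjusted p = 0.000138). The procollagen peptidase Adamts2, the basement membrane protein Nid1, the proteoglycan Lum, the cross-linking enzymes Lox and Loxl1 and the metalloproteinases Mmp2 and Mmp12 were higher as well.

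Fn1, fibronectin, which hepatocytes secrete into plasma, was lower, at 2161, 2105 and 1777 CPM against 3085, 3073, 3213 and 3093 CPM (log2-fold change -0.63, SE 0.09, adjusted p = 0.00111). Since Fn1 is abundant, the summed CPM of the matrix list was lower in VDD-F1, at 3211 to 3867 against 4094 to 4335, although most members were higher. Postn and Bmp1 were the other 2 that fell.

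Of 17 stellate cell markers, 8 were higher and none was lower. Their summed CPM was 555 to 656 in VDD-F1 and 425 to 524 in VDS-F1. Cygb, a globin of quiescent stellate cells, was at 20.7, 20.1 and 15.9 CPM against 5.64, 5.88, 5.76 and 7.65 CPM (log2-fold change 1.6, SE 0.15, adjusted p = 7.24e-05). Acta2, the smooth muscle actin of activated stellate cells and vessel walls, was at 5.22, 3.89 and 3.45 CPM against 0.619, 0.728, 1.18 and 1.57 CPM (log2-fold change 2.03, SE 0.33, adjusted p = 0.00270). In VDS-F1 mice 1 and 2, with no recorded weight, Acta2 was at 5.08 and 3.07 CPM, near the level of the VDD-F1 mice. Its log2-fold change in the 5 others was -0.38, and the edgeR test of the difference between the sets did not pass (adjusted p = 0.178). Dcn and Col14a1 are in the matrix or collagen list as well. The part of cell composition in the matrix differences was not tested. When the spread was estimated over all 12 libraries, 2 collagens and 1 stellate marker were higher, no collagen was lower, and of the other matrix genes 2 were higher and 2 lower. Col1a1, Timp3 and Cygb did not pass there (adjusted p = 0.0686, 0.124 and 0.101).

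Macrophage markers split in their direction. Of 11 tested markers of monocyte-derived and lipid-associated macrophages, 8 were higher and none lower, and their summed CPM was 141 to 149 in VDD-F1 and 65.7 to 76.7 in VDS-F1. Gpnmb, a glycoprotein of lipid-laden macrophages (chromosome 6, 49036546 to 49070929), was at 18.6, 16.8 and 7.41 CPM against 0.0687, 0.208, 0.139 and 0.286 CPM (log2-fold change 6.27, SE 0.43, adjusted p = 5.76e-06). Trem2, a lipid-sensing receptor, was at 3.36, 3.10 and 2.66 CPM against 0.137, 0.156, 0.0694 and 0.215 CPM (log2-fold change 4.32, SE 0.39, adjusted p = 4.27e-05). Cd9, Lyz2, Ccr2, Mmp12, Cx3cr1 and Spp1 were the others. All 8 of 8 passed in each of the 7 fits that left out 1 mouse, but only 2 passed when the spread was estimated over all 12 libraries, where Trem2 had an adjusted p of 0.0676.

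Of 14 Kupffer cell markers, 6 were lower and 1 was higher, and with the spread over all 12 libraries 2 were lower and none higher. Cd163, the hemoglobin scavenger receptor, was at 0.892, 2.84 and 1.63 CPM in VDD-F1 and at 21.7, 18.9, 16.5 and 14 CPM in VDS-F1 (log2-fold change -3.28, SE 0.29, adjusted p = 3.60e-05). Clec4f, found on mouse Kupffer cells, was at 23.2, 35.0 and 41.2 CPM against 66.0, 64.1, 47.8 and 54.3 CPM (log2-fold change -0.81, SE 0.18, adjusted p = 0.0141). Timd4, Folr2, Csf1r and Cd5l were lower too, while the iron exporter Slc40a1 was higher, a call lost without VDD-F1 mouse 5. The summed CPM of the list overlapped between the groups, at 375 to 439.7 in VDD-F1 and 429 to 529 in VDS-F1. The part of these cells in the other differences was not tested.

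Of the other cell types, 4 of 20 endothelial markers were lower (Ehd3, Stab2, Gpr182 and Wnt2) and none was higher. The number lower was 2 without VDD-F1 mouse 4 or 6 or VDS-F1 mouse 3. Among 10 dendritic cell markers 2 were higher (Itgax and Irf8), and Irf8 passed in 2 of the 7 fits that left out 1 mouse (adjusted p = 0.149 without VDD-F1 mouse 6). The count was 1 without VDD-F1 mouse 5 or 6 or VDS-F1 mouse 3, 4 or 5. Among 9 cholangiocyte markers 2 were higher (Spp1 and Epcam), and among 7 erythroid markers 1 was higher (Alas2). When VDD-F1 mouse 4 was left out, 1 cholangiocyte marker and no erythroid marker was higher. The calls of Epcam and Alas2 were lost without VDD-F1 mouse 6 as well. With the spread over all 12 libraries 1 endothelial marker was lower, and no dendritic, cholangiocyte or erythroid marker passed. None of 5 lymphocyte or 6 mesothelial markers passed. Of the adipocyte and pancreas lists only 2 genes and 1 gene had enough counts, and 1 of each was lower (Cfd and Cela1). Neither passed without VDD-F1 mouse 4 (adjusted p = 0.120 for Cfd and 0.0612 for Cela1), and neither did without VDD-F1 mouse 5.

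Hepatocyte markers went both ways, 4 of 14 higher and 3 lower. Without VDD-F1 mouse 4, 5 or 6 or VDS-F1 mouse 3 or 4, 2 were higher, and no hepatocyte marker passed with the spread over all 12 libraries. Alb, albumin, was at 75719, 74258 and 78461 CPM against 55809, 61386, 61812 and 57759 CPM (log2-fold change 0.36, SE 0.08, adjusted p = 0.0128). Apoa2, an apolipoprotein, fell by 0.48 on the log2 scale. The transcription factor Hnf4a was lower as well (log2-fold change -0.46, SE 0.11, adjusted p = 0.0198).

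**Figure D3:**
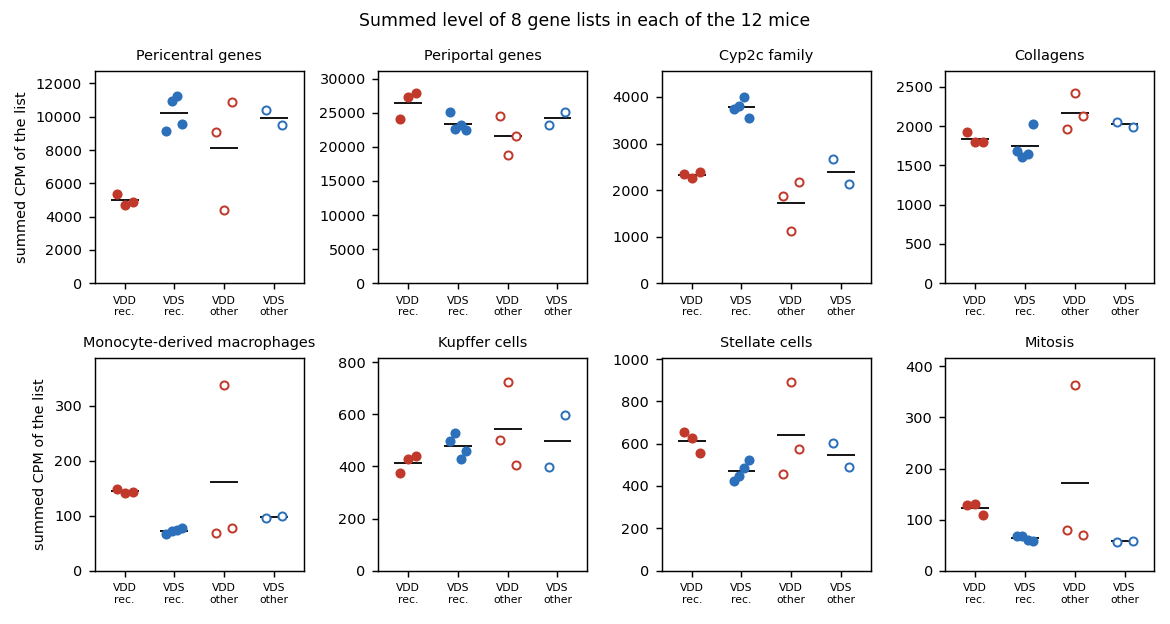
Summed CPM (y axis, from 0) of all measured members of 8 lists in each mouse, in the same 4 groups (x axis) and with the same colours as in the plot of single genes. Black bars are group means. Among the filled points the pericentral, Cyp2c, macrophage, stellate and mitosis sums do not overlap between diets, with pericentral genes at 4715 to 5363 CPM in VDD-F1 and 9142 to 11263 CPM in VDS-F1, whereas the collagen, periportal and Kupffer cell sums do.

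Genes of mitosis were at low levels in all livers and higher in VDD-F1. Of 57 listed, 43 passed the count filter, and 17 of them were higher and none lower. All 43 log2-fold changes were positive, with a median of 1.30. The filter took the mean over all 12 libraries, among them VDD-F1 mouse 2 with a summed 363.5 CPM of this list. Low genes could thus enter through their VDD-F1 counts, and the shared sign of the 43 may in part reflect this. Mki67, the marker of cycling cells, was at 8.58, 12 and 8.16 CPM in VDD-F1 and at 3.02, 4.06, 2.99 and 5.44 CPM in VDS-F1 (log2-fold change 1.30, SE 0.23, adjusted p = 0.00454). Ncapg2, a condensin subunit, was at 2.81, 3.47 and 3.54 CPM against 0.962, 0.832, 0.903 and 0.572 CPM (log2-fold change 1.99, SE 0.29, adjusted p = 0.00128). Hmmr, a spindle protein, was at 2.20, 1.42 and 1.21 CPM against 0.412, 0.208, 0.208 and 0.215 CPM (log2-fold change 2.59, SE 0.44, adjusted p = 0.00341). The summed CPM of the list was 108 to 131 in VDD-F1 and 58.5 to 67.8 in VDS-F1.

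The calls of mitosis genes depended on single mice. Without VDD-F1 mouse 4 or 5, 6 genes passed, without VDS-F1 mouse 5 there were 9, and without VDD-F1 mouse 6 or VDS-F1 mouse 4 there were 11. With the spread over all 12 libraries none passed, although 17 did in the 7 mice. The macrophage markers given above moved in the same mice, and their part in the mitosis difference was not tested. Of 38 tested genes of DNA replication and S phase, 1 was higher (Brca1) and none lower, and Brca1 did not pass in any of the 7 fits that left out 1 mouse.

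Promoters of mitosis genes commonly hold a cell cycle homology region (CHR), with the letters TTTGAA on either strand. RefSeq gives promoter windows for 14 of the 17 mitosis genes that passed, and 12 of these windows (85.7%) held the CHR letters. So did 17 of 23 windows (73.9%) of tested mitosis genes that did not pass, and 1136 of 9590 windows (11.8%) of all tested genes. The 3 genes described above are shown, as the 3 with the smallest p-values whose window held a match. Windows are written 5′ to 3′ on the strand of the gene, with each match in capitals. That of Ncapg2 is at chr12:116405186-116405485 on the plus strand, that of Hmmr at chr11:40733388-40733687 on the minus strand and that of Mki67 at chr7:135716330-135716629 on the minus strand (GRCm38.p6).
Ncapg2: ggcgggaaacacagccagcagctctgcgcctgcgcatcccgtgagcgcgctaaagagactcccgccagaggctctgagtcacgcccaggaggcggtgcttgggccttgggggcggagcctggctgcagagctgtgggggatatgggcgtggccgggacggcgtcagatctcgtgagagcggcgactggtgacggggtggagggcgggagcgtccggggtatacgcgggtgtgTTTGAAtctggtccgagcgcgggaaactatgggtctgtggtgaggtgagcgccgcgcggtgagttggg
Hmmr: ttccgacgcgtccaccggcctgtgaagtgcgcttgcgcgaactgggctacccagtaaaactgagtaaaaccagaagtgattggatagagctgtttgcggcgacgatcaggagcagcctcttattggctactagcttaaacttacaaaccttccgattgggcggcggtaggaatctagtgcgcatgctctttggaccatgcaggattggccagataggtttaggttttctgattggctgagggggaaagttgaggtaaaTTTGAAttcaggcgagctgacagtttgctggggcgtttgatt
Mki67: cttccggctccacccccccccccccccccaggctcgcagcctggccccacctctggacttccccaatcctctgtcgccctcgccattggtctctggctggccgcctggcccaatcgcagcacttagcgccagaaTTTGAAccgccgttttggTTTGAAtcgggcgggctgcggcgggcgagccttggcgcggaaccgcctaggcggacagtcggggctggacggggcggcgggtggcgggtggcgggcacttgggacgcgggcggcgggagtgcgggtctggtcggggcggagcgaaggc
The match in Ncapg2 begins 18 bases before the annotated start, that in Hmmr 8 bases after it, and Mki67 has 2 matches, 116 and 98 bases before it.

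Of 23 genes of the G1 phase and of p53 targets, 5 were higher (Btg2, Ccnd1, Phlda3, Cdkn1a and Cdkn2c) and none lower. Btg2, an antiproliferative p53 target, was at 16.2, 28.4 and 30.2 CPM in VDD-F1 and at 4.88, 6.97, 6.25 and 7.80 CPM in VDS-F1 (log2-fold change 1.95, SE 0.22, adjusted p = 0.000197). Ccnd1, cyclin D1, was at 45.3, 51.7 and 43.2 CPM against 16.9, 19.1, 16.5 and 9.59 CPM (log2-fold change 1.59, SE 0.19, adjusted p = 0.000281). Cdkn1a, the cell cycle inhibitor p21, was at 18.1, 50.1 and 23.4 CPM against 7.08, 8.27, 3.75 and 14 CPM, and its call was lost without VDD-F1 mouse 5 (adjusted p = 0.0583). In the fit with all 12 libraries 2 genes of the list were higher, and Ccnd1 and Phlda3 did not pass (adjusted p = 0.185 and 0.112).

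Clock genes, whose levels follow the hour of the day, were in part lower, with 9 of 19 lower, none higher and a median log2-fold change of -0.73. The hour at which the livers were taken is not given in the sources used here. Nr1d1, a repressor of the clock, was at 51.1, 57.2 and 56.5 CPM in VDD-F1 and at 214, 227, 200.3 and 58.1 CPM in VDS-F1. Thus VDS-F1 mouse 6 was at the level of the VDD-F1 mice. The log2-fold change was -1.67 (SE 0.35, adjusted p = 0.0106), and without VDD-F1 mouse 4 the adjusted p was 0.0531. Dbp, an output gene of the clock, was at 2.47, 1.42 and 4.10 CPM against 23.0, 28.0, 82.1 and 1.86 CPM, and Arntl, which peaks at the opposite phase, at 31.3, 33.8 and 23.7 CPM against 11.8, 15.3, 9.23 and 37.3 CPM.

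For Dbp, VDS-F1 mouse 6 was again among the VDD-F1 values, and for Arntl it was above all of them. Arntl did not pass (adjusted p = 0.281). Hlf and Cry2 were lower without overlap, with Hlf at 39.1, 38.1 and 38.9 CPM against 66.0, 62.4, 81.9 and 62.7 CPM (log2-fold change -0.82, SE 0.11, adjusted p = 0.000818). The number of clock genes lower was 2 without VDD-F1 mouse 4, 3 without VDD-F1 mouse 5, 6 without VDD-F1 mouse 6 and 5 without VDS-F1 mouse 3. Without VDS-F1 mouse 6, 10 were lower and 3 higher, and with the spread over all 12 libraries 3 were lower.

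Of 16 listed genes of vitamin D handling, 12 were tested, 2 were lower and none higher. Cyp27a1, a 25-hydroxylase that also makes bile acids (chromosome 1, 74713574 to 74737892), was at 306, 318 and 293 CPM in VDD-F1 and at 454, 442, 473 and 446 CPM in VDS-F1 (log2-fold change -0.57, SE 0.08, adjusted p = 0.000814). Rxra, the partner of the vitamin D receptor (chromosome 2, 27676440 to 27762957), was at 475, 462 and 416 CPM against 602, 619, 620.4 and 514 CPM (log2-fold change -0.39, SE 0.09, adjusted p = 0.0226). Its call was lost in 5 of the 7 fits that left out 1 mouse, with VDD-F1 mice 5 and 6 and VDS-F1 mice 3, 4 and 5. Neither gene passed with the spread over all 12 libraries (adjusted p = 0.175 for Cyp27a1 and 0.0794 for Rxra).

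Cyp2r1, the main 25-hydroxylase of the liver, was at 9.68, 14 and 14.8 CPM against 11.3, 13.3, 14.6 and 10.8 CPM, with a log2-fold change of 0.04 (SE 0.17, adjusted p = 0.906). Gc, the vitamin D-binding protein, was at 5373, 5376 and 5419.5 CPM against 4595, 4804, 5051 and 4594 CPM, and did not pass (log2-fold change 0.18, SE 0.08, adjusted p = 0.173). Rxrb, Rxrg, Cyp3a11, Lrp2, Pdia3, Ncor1 and Med1 had log2-fold changes between -0.32 and 0.33 and did not pass. Vdr, Cyp27b1, Cyp24a1 and Cubn were under the filter, with at most 4 counts in any of the 7 libraries.

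Of 22 acute phase genes, 6 were higher and 2 lower. Hpx, hemopexin, which binds free heme, was at 5022, 4627 and 4608 CPM in VDD-F1 and at 2557, 2883, 2474 and 2310.0 CPM in VDS-F1 (log2-fold change 0.89, SE 0.09, adjusted p = 0.000116). The number higher was 2 without VDD-F1 mouse 5, 3 without VDD-F1 mouse 4 or VDS-F1 mouse 5, and 2 with the spread over all 12 libraries. The number lower was 1 without VDD-F1 mouse 5 and none in the 12-library fit, where Saa4, a serum amyloid A gene, had an adjusted p of 0.0665. Of 26 stress response genes 4 were higher (Gdf15, Jun, Asns and Fos) and none lower. When VDD-F1 mouse 4 was left out, 2 were higher, and without VDS-F1 mouse 6, 4 were lower. The 12-library fit had 1 stress gene higher, while Gdf15 and Asns did not pass (adjusted p = 0.170 and 0.0949). Of 24 interferon-stimulated genes 2 were higher (Ifi27 and Bst2) and 2 lower (Irf7 and Ddx58), each by a log2-fold change under 1. Without VDD-F1 mouse 4 or VDS-F1 mouse 3 none of them passed in either direction, and Bst2 did not pass in any of the 7 fits that left out 1 mouse. None of the 24 passed with the spread over all 12 libraries.

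Serpina12 (vaspin, a serpin that affects insulin sensitivity, chromosome 12, 104028769 to 104044443) and Rgs16 (a regulator of G protein signalling, chromosome 1, 153740349 to 153745468) belong to none of the lists but were among the strongest falls. Serpina12 was at 6.18, 9.47 and 6.20 CPM in VDD-F1 and at 57.6, 60.3, 51.5 and 53.2 CPM in VDS-F1 (log2-fold change -2.93, SE 0.16, adjusted p = 9.31e-07). Rgs16 was at 0.275, 0.999 and 0.420 CPM against 9.48, 24.8, 108 and 2.07 CPM, a wide spread among VDS-F1 mice (log2-fold change -5.94, SE 1.28, adjusted p = 0.0119). Its call was lost without VDD-F1 mouse 4, 5 or 6 (highest adjusted p = 0.0612) and in a robust form of the edgeR fit. It was also lost with limma voom (adjusted p = 0.265) and with the spread over all 12 libraries (adjusted p = 0.0639). In the 5 mice with no recorded weight its log2-fold change was 0.88, the opposite direction.

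In the 5 mice with no recorded weight, no gene passed (0.0% of the 12453 tested, edgeR quasi-likelihood test, with 472 genes at an unadjusted p under 0.05 and 34 passing with DESeq2). A log2-fold change in the same direction was nevertheless seen there for 329 of the 381 higher DEGs (86.4%, against 51.8% of all genes that were higher) and for 106 of the 155 lower DEGs (68.4%, against 48.2% of all genes that were lower). The 2 comparisons share no mouse, but they share the count filter over all 12 libraries. Low genes, such as those of mitosis, could enter it through VDD-F1 mouse 2. By list, the same direction was seen there for all 17 mitosis genes and all 8 macrophage markers that had passed, for 10 of the 12 pericentral genes and 5 of the 7 periportal genes, but for 4 of the 9 clock genes, 1 of the 4 stress genes and none of the 10 fatty acid oxidation genes. The list medians there were negative for acute phase genes (-0.44) and positive for lipid synthesis and storage genes (0.33) and Kupffer cell markers (0.13), opposite in sign to those in the 7 mice. The median of erythroid markers also turned, from 0.06 in the 7 mice to -0.83. So did the medians of the periportal, growth hormone, cholesterol, interferon, endothelial and hepatocyte lists, which lay between -0.08 and 0.23 in the 5 mice. The direction of the DEGs there rested on VDD-F1 mouse 2. Without it their shares were 45.7% and 49.7%, and without 1 of the other 4 mice they were between 82.4% and 90.3% and between 59.4% and 76.8%.

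Mouse by mouse, the median log2 difference of the higher DEGs from the VDS-F1 mice of the same set was 1.67, 1.55 and 1.45 in VDD-F1 mice 4, 5 and 6. In VDD-F1 mouse 2 it was 1.68, while in VDD-F1 mice 1 and 3 it was -0.21 and 0.13. For the lower DEGs it was -1.56, -1.53 and -1.6 in mice 4, 5 and 6, -1.56 in mouse 2, and 0.08 and -0.11 in mice 1 and 3. By these medians, VDD-F1 mouse 2 stood with the 3 VDD-F1 mice that have a recorded weight, and the 2 others near their controls. Male-biased genes differed, with a summed CPM of 13775 and 13401.5 in VDD-F1 mice 1 and 3 against 25733 and 19710 in VDS-F1 mice 1 and 2. The median log2-fold change of that list was -1.07 in the 5 mice and -0.73 in the 7. Mup17 was at 101 and 107 CPM in VDD-F1 mice 1 and 3 against 236 and 272 CPM. Cyp2a4 was at 0.126, 40.4 and 0 CPM in VDD-F1 mice 1, 2 and 3, and Mup7 at 505, 6.63 and 242 CPM against 1605 and 1126 CPM in VDS-F1 mice 1 and 2. The summed CPM of mitosis genes was 363.5 in VDD-F1 mouse 2 and 70.0 and 79.6 in mice 3 and 1. In VDS-F1 mice 1 and 2 it was 56.9 and 57.1. That of the macrophage markers was 338 in VDD-F1 mouse 2 and 76.8 and 67.7 in mice 3 and 1, against 96.0 and 98.4 in VDS-F1 mice 1 and 2. VDD-F1 mice 1 and 3 were thus above these controls for mitosis and below them for macrophage markers.

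**Figure D4:**
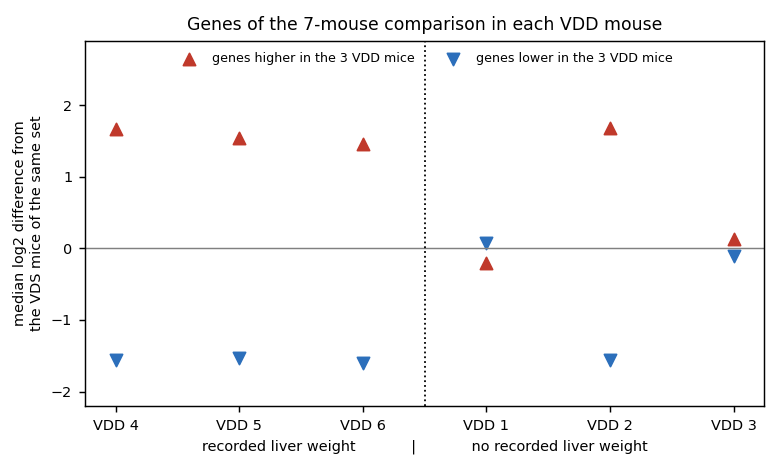
Median log2 difference (y axis) of the 381 higher (red, upward triangles) and 155 lower (blue, downward triangles) DEGs of the 7-mouse comparison from the mean of the VDS-F1 mice of the same set, for each VDD-F1 mouse (x axis). Mice 4, 5 and 6, left of the dotted line, chose the genes. Of the other 3, mouse 2 lies at 1.68 and -1.56 and mice 1 and 3 lie between -0.21 and 0.13.

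Slc2a2 and Slc3a1 were chosen after their values were seen, for their values in VDD-F1 mouse 2. Slc2a2, the glucose transporter GLUT2 of hepatocytes, was at 143, 143 and 152 CPM in VDD-F1 mice 4, 5 and 6 and at 365, 319, 391 and 334 CPM in VDS-F1 (log2-fold change -1.27, SE 0.09, adjusted p = 7.90e-06), but at 389.6, 289 and 519 CPM in VDD-F1 mice 1, 2 and 3 against 416 and 417 CPM. Slc3a1, a subunit of a cystine transporter, was at 120.0, 149 and 113 CPM against 36.6, 48.6, 38.2 and 43.4 CPM (log2-fold change 1.61, SE 0.12, adjusted p = 1.19e-05), and at 73.4, 74.1 and 42.3 CPM against 49.1 and 104 CPM in the other mice.

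A test of whether the diet effect differed between the 2 sets passed for 11 genes (0.0883%). In 9 of them the difference was higher in the mice with a recorded weight. Saa1 and Saa2, the serum amyloid A genes that rise with inflammation, were higher in VDD-F1 by a log2-fold change of 0.63 and 1.0 in the 7 mice, and had log2-fold changes of -2.67 and -2.22 in the 5 others (difference 3.30 and 3.22, adjusted p = 0.00151 for each). In the 7 mice Saa1 passed in 3 of the fits that left out 1 mouse (adjusted p = 0.111 without VDD-F1 mouse 4), and Saa2 in all 7. In VDS-F1 mice 1 and 2 Saa1 was at 225 and 279 CPM, and in the other 10 mice it was at 12.2 to 51.8 CPM. Fst, which blocks activin, was at 7.96, 7.78 and 5.46 CPM against 1.31, 1.25, 1.25 and 2.79 CPM in the 7 mice and at 2.97, 5.12 and 3.16 CPM against 13.8 and 16.5 CPM in the others (difference 4.11, adjusted p = 0.00244).

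Serpina1e, Tff3, Sik1, Zfp36, Sgk1 and Gm4788 also had a higher difference in the 7 mice, and Tns2 and Acot2 a lower one. The number of genes passing this test moved with the mice included. It was 334 without VDD-F1 mouse 2, 25 without VDS-F1 mouse 6, 17 without VDD-F1 mouse 1 and as few as 3 in other fits that left out 1 mouse.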

How the data were processed

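Strand-specific libraries from ribosomal RNA-depleted liver RNA of 12 mice were sequenced and, according to the study's methods and processing notes, trimmed and aligned by the authors with STAR to GRCm38 (mm10). The authors deposited raw gene counts from the aligner, unnormalised and in 3 strand columns. The reverse-strand column was used here, since it held 92.7% to 95.8% of the stranded counts. Rows for unmapped, multimapping, unassigned and ambiguous fragments were kept out of library sizes. A published figure of liver weights fixed the 7 mice, and its weights were not used.

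The 12453 genes whose counts averaged 12 or more across all 12 libraries entered the edgeR 4.0.16 quasi-likelihood test (legacy form, TMM within the libraries fitted, R 4.3.3), two-sided, with Benjamini-Hochberg adjustment over all of them. A gene passed at an adjusted p-value under 0.05. The standard error is the absolute log2-fold change over the square root of F. The difference between sets was the interaction of set and diet over all 12 libraries. CPM values were TMM-scaled over the 12. Positions are those of GENCODE M21 (52403 of 52636 genes matched), and promoter sequences are from RefSeq (GRCm38.p6), with a window for 9590 of the 12453 genes.

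Genes were named by rule: in each direction the 8 DEGs with the smallest p-value and the 5 with the largest change among those at a mean of at least 5 CPM, up to 3 passing members per list, all vitamin D genes, and 4 genes per direction of the interaction. Other genes named were chosen after their values were seen. A lack of overlap between the groups in a gene chosen by either way follows in part from the choice. The members and lists were chosen with earlier results of these data known. Results for a few genes are not reported here. Scripts were tested on simulated counts. Alternatives were DESeq2 1.42.0, limma 3.58.1 voom, other forms of the fit, scalings, filters and strand columns, a replicate block, all 12 libraries in the fit, and leaving out each mouse.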

Additional observations from a re-analysis of the deposited data

Results flagged for a closer look

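In the group of 4 VDS-F1 mice, 145 sets of values were screened for a mouse far from the other 3 by Dixon's test, and 11 were found, where chance gives about 1 in 20. Mouse 6 was such a mouse in 6 of them. It had 58.1 CPM of the clock gene Nr1d1, against 200.3 to 227 CPM in the other 3, and 155 CPM of the acute phase gene Saa4, against 216 to 223 CPM. It had 7.65 CPM of Cygb against 5.64 to 5.88 CPM, 2.79 CPM of Fst against 1.25 to 1.31 CPM, and a summed level of female-biased genes of 310.5 CPM against 172 to 179.9 CPM. Its share of fragments outside genes was 11.1% against 3.37% to 4.40%. Mouse 4 had 7.75 CPM of Ntrk2, against 1.99 to 2.64 CPM, the 1 read of Lrtm2 in the group (0.0520 CPM) and the most fragments counted on genes, 19005544 against 14275793 to 15009275. Mouse 5 had 284 CPM of Cyp2c54 against 218 to 225 CPM, and mouse 3 had 0.412 CPM of Hmmr against 0.208 to 0.215 CPM.

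The diet effect in the 7 mice with a recorded weight minus that in the other 5, on the log2 scale (edgeR quasi-likelihood interaction), was 4.62 for Tff3 (adjusted p = 0.0109), 3.30 for Saa1 (adjusted p = 0.00151), 3.22 for Saa2 (adjusted p = 0.00151), 4.11 for Fst (adjusted p = 0.00244), 2.06 for Serpina1e (adjusted p = 0.0109), -1.29 for Tns2 (adjusted p = 0.0109) and -2.34 for Acot2 (adjusted p = 0.0265). In Saa1, Saa2, Fst, Serpina1e and Tns2 every VDD-F1 mouse of one set lay to one side of its VDS-F1 group, and every VDD-F1 mouse of the other set to the opposite side. The same was seen for Nr1d1 (-3.14, adjusted p = 0.0573), Fzd4 (-1.01, adjusted p = 0.0573), Alas2 (0.87, adjusted p = 0.178) and Gc (0.32, adjusted p = 0.581), for which the difference did not pass.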

How the results depend on the processing

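Of the 95 genes that the naming rule gives and that passed, 94 still passed in the same direction with DESeq2 and with limma voom, 80 to 93 when 1 mouse was left out, and 44 when all 12 libraries shared the spread with a diet effect for each set. With set as a covariate and a single diet effect, 5 did. The cause was not tested. In that per-set fit, 126 genes were higher and 126 lower (79 and 75 DEGs), and with the covariate 15 and 13 (10 and 11 DEGs). Leaving out 1 mouse gave 425 to 854 genes higher and 380 to 725 lower. With no filter on low counts 1076 were higher and 931 lower. The same replicate number marks different mice, and same-numbered mice did not deviate together (r = -0.016, 0.058 and -0.105). With the replicate block 357 genes were higher and 289 lower (242 DEGs higher), and 77 of the 95 passed.

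Of genes whose diet effect differed between the sets there were 138 with DESeq2, 2 with the replicate block and 3 to 334 when 1 mouse was left out, the last without VDD-F1 mouse 2. In the other 5 mice 34 genes passed with DESeq2, and 0 to 25 with 1 mouse left out. The shares of DEGs with the same direction there ran from 45.7% to 90.3% (higher) and from 49.7% to 76.8% (lower).

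Among the genes that the naming rule gives and the text reports, and not counting other genes, directions turned in these fits: for 4 vitamin D genes that did not pass, and for 4 genes with set as a covariate. With 1 mouse left out the log2-fold change ran from -0.37 to 0.041 for Rxrg, from -0.0755 to 0.2025 for Cyp2r1, from -0.1282 to 0.4882 for Lrp2 and from -0.0917 to 0.0647 for Pdia3. Cyp2r1 was at -0.0187 and Pdia3 at 0.0259 with the replicate block, and Pdia3 at 0.0013 with voom and 0.0408 without TMM. With set as a covariate Saa2 was at -0.4186, Saa1 at -0.7887, Tns2 at 0.0561 and Acot2 at 0.7948. Most mitosis genes were at a few CPM, so that few fragments per library stand behind their calls.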
